A study of Mus musculus with 20 samples.

Results

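The genes of the lipid-associated macrophage programme are described here: Trem2, Tyrobp, Apoe, Spp1, Gpnmb, Fabp5, Lpl, Cd9, Cd63 and Lgals3. They are 10 of 55260 genes, chosen as a list of names and measured by adding up the counts of their transcripts. Levels are CPM, a gene's counts scaled to a common library total, after TMM scaling over all 20 libraries. RNA came from mouse tumours of MC38-OVA, a colon carcinoma line that expresses ovalbumin, grown in C57BL/6 mice. From each treatment 4 populations were sorted: CD8 T cells (CD8T), CD11c+CD11b+ and CD11c+CD11b- cells, which the labels call dendritic cells, and CD11c-CD11b+ myeloid cells.

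The 5 treatments were untreated, 8 Gy of focal radiotherapy on day 12 (RT), RT with an antibody against SIRPa (400 µg on days 12, 14 and 16), RT with an antibody against PD-1 (250 µg on days 12 and 15), and RT with both antibodies. All tumours were taken on day 17, and every group carried the same tumour line. Leukocytes of 10 tumours, 1 from each mouse, were pooled for a group, read here as 1 pool for each treatment, and each population of each treatment is 1 library. The 5 pools therefore act as replicates for a difference between populations, although they also differ in treatment, and no treatment has a replicate of its own. With the pool as a term, p-values for populations rest on how far the difference varies from pool to pool. That variation includes any effect of treatment on the difference. P-values for irradiation within a population rest on the spread between irradiated libraries, which differ in antibody. Those for an antibody rest on the departure from added effects of both antibodies. In every test the edgeR fit also draws a gene's spread toward that of all genes tested. Where few residual degrees of freedom are left, as with 1 in the antibody tests, the p-values rest largely on that shared spread.

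Lipid-associated macrophages are phagocytes that take up and break down lipid from dying cells, and they are found in fat tissue, atherosclerotic plaques, damaged brain and tumours. TREM2 is a surface receptor for lipids and apolipoproteins that signals through the adaptor TYROBP. Much of the rest of the programme works downstream of uptake: apolipoprotein E and lipoprotein lipase act on lipoproteins outside the cell, FABP5 carries fatty acids inside it, and CD63, GPNMB and galectin-3 are tied to endosomes and lysosomes.

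On GRCm38 the genes on the + strand span Trem2 at chr17:48346401-48354147, Tyrobp at chr7:30413760-30417585, Spp1 at chr5:104435118-104441050, Gpnmb at chr6:49036546-49070929, Fabp5 at chr3:10012548-10016607, Lpl at chr8:68880491-68907448, Cd63 at chr10:128900989-128912822 and Lgals3 at chr14:47367751-47386160. Those on the - strand span Apoe at chr7:19696109-19699188 and Cd9 at chr6:125460266-125494791.

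The stretch just before the start site is shown for Trem2 and Apoe, which differed most between populations, and for Gpnmb and Cd63, whose levels in CD11c-CD11b+ cells exceeded those of the CD11c+CD11b+ fraction. They were chosen after their values were seen. Each is the 250 bases before the start site, from RefSeq on GRCm38.p6, written along the gene's own strand, and capitals mark matches to the motifs searched. They are chr17:48346151-48346400 (+ strand) for Trem2, chr7:19699189-19699438 (- strand) for Apoe, chr6:49036268-49036517 (+ strand) for Gpnmb and chr10:128909095-128909344 (+ strand) for Cd63, which lies inside that gene's annotated span.
Trem2: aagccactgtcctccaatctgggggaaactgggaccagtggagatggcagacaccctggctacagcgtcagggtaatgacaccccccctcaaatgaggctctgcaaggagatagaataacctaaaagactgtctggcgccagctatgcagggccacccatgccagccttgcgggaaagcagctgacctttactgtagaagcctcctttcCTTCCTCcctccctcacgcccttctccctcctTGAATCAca
Apoe: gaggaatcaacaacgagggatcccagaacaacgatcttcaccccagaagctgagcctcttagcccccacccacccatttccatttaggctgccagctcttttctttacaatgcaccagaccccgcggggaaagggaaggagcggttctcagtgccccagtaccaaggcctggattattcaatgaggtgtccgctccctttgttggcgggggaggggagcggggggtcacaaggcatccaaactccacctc
Gpnmb: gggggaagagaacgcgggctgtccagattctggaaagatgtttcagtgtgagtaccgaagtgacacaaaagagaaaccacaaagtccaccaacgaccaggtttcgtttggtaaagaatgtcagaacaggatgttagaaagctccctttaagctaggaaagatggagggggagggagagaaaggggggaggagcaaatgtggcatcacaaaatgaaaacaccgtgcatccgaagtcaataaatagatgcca
Cd63: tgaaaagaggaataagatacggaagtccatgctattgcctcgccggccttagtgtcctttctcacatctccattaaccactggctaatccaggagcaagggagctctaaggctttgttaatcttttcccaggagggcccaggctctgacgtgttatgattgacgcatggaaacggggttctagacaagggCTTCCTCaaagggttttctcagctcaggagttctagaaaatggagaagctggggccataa
The motifs searched on both strands were CACGTG (E-box), TCATGTG (M-box), TGANTCA (AP-1) and GAGGAAG (PU.1), which do not overlap in these windows. They occur in 6.02%, 3.25%, 6.75% and 10.6% of 32851 RefSeq windows of the same length. The Trem2 window held an AP-1 match that starts 9 bases before the start site and a PU.1 match that starts 41 bases before it. The Cd63 window held a PU.1 match 60 bases before its start site, as did that of Spp1 at 113 bases. No match was found in the windows of Apoe, Gpnmb, Cd9 and Lgals3. Windows were found for 7 of the 10 genes, and Tyrobp, Fabp5 and Lpl had none in the table.

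Library totals ran from 21522743 to 35696925 counts, and none of the 190 pairs of libraries agreed within counting error. Some libraries stood apart. The library labelled untreated CD8T held 165 CPM over 7 CD8 T cell markers, against 2394 to 3978 CPM in the other CD8T libraries, and 10075 CPM over 10 macrophage markers, against 736 to 1647 CPM. The comparison of CD8T with myeloid cells is given with and without it, and irradiation was not tested in CD8T. The CD11c-CD11b+ library of RT with anti-SIRPa held 3166 CPM over 6 neutrophil markers, against 638 to 1591 CPM in the other 4 of that population. The untreated CD11c+CD11b+ library was set apart from its other 4 by its Trem2 and Cd9. The labelled dendritic cells were checked against 7 dendritic cell markers, which summed to 71.2 to 211 CPM in CD11c+CD11b+ and 95.5 to 860 CPM in CD11c+CD11b- libraries. The macrophage markers summed to 4559 to 8543 CPM in CD11c+CD11b+ libraries, 2731 to 5096 CPM in CD11c-CD11b+ and 295 to 682 CPM in CD11c+CD11b-. In such bulk samples, fewer cells of a type and less RNA per cell cannot be told apart.

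Compared per transcript length, as TPM (a level scaled by length and by the library's total), Apoe was the most abundant of the 10 in CD11c+CD11b+ cells at 6231 ± 1400 TPM (SD, n = 5). Tyrobp followed at 1238 ± 149 TPM, Lgals3 at 869 ± 176 TPM and Spp1 at 710 ± 131 TPM, and the range of Lgals3 overlaps those of Tyrobp and Spp1. Cd63, Trem2, Cd9 and Fabp5 lay at 314 ± 119, 187 ± 44, 179 ± 37.7 and 124 ± 32.3 TPM, whose ranges overlap between neighbours. Gpnmb at 45.1 ± 7.13 TPM and Lpl at 6.73 ± 0.917 TPM were the lowest. In CD11c+CD11b- cells the order of the means changed: Tyrobp led at 1008 ± 194 TPM, ahead of Spp1 at 628 ± 137 TPM and Apoe at 524 ± 176 TPM, and Trem2 stood at 14.3 ± 3.77 TPM. That order did not hold in every library: the untreated one held 770 TPM of Apoe, 695 of Tyrobp and 394 of Spp1.

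**Figure D1:**
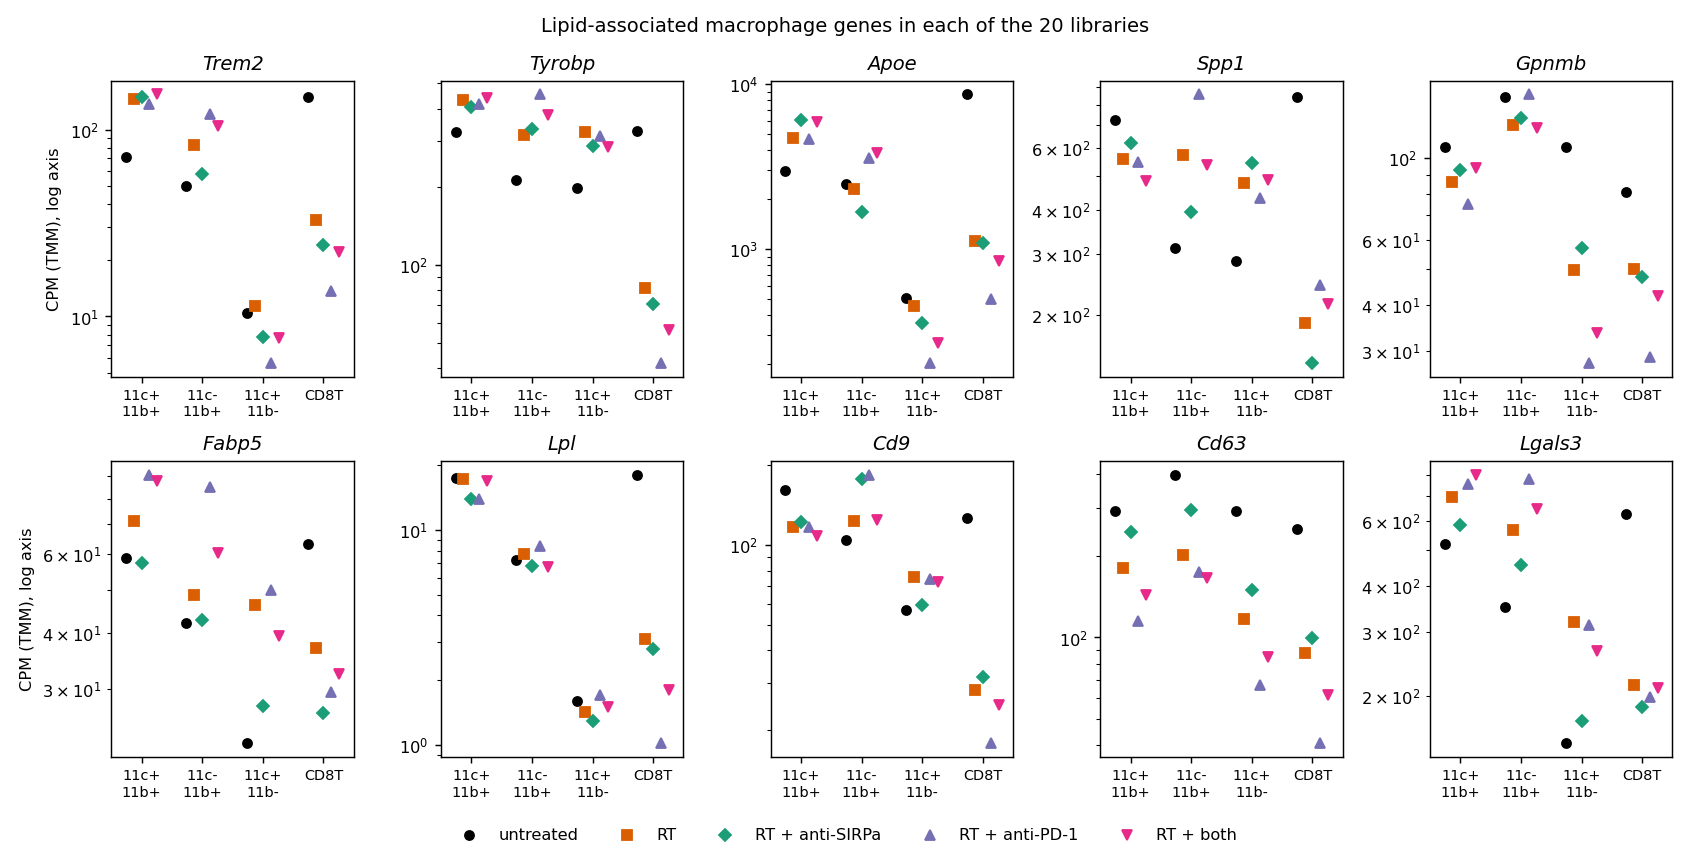
Level of each of the 10 genes in every library as TMM-normalised CPM on a log axis (y) in the 4 populations (x), with 1 point for each treatment. Trem2, Apoe, Lpl, Cd9 and Lgals3 of the CD11c+CD11b- libraries lie below all libraries of the other 2 myeloid populations. The share of all genes that do so is not given here. The untreated CD8T point lies above every other CD8T point in all 10 panels.

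The question of the population comparisons is where in the sorted myeloid cells the programme was expressed. Most of its genes were higher in the CD11b+ fractions, and 3 separated these from CD11c+CD11b- cells most: Trem2, Apoe and Lpl. Of the 10 genes, 9 were lower in CD11c+CD11b- cells than in the CD11c+CD11b+ ones and none was higher, where 41.6% of all 20905 genes tested were called in either direction. The median log2 difference of the 10 was -0.957, beside 0.003 over all genes tested. Against CD11c-CD11b+ cells 8 of 10 were lower and none higher, where 43.3% of all genes were called, and the median of the 10 was -1.126. The macrophage markers differed by more at the median in both comparisons. All 10 markers were lower in CD11c+CD11b- cells in both, with medians of -3.822 and -2.843. Among them was Csf1r, the receptor for macrophage growth factor, at -4.19 ± 0.26 and -3.50 ± 0.30. The markers' part in the lower Trem2, Apoe and Lpl was not tested.

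Trem2, the lipid receptor, measured 71.6 CPM in the untreated CD11c+CD11b+ library, 146 after RT, 149 with anti-SIRPa, 137 with anti-PD-1 and 154 with both. In the same order the CD11c-CD11b+ libraries held 50.1, 82.6, 57.5, 121 and 105 CPM, and the CD11c+CD11b- libraries 10.4, 11.4, 7.73, 5.63 and 7.7 CPM. The CD11c+CD11b- libraries thus lay below all others, without overlap. Trem2 was 15.2-fold lower in CD11c+CD11b- cells than in the CD11c+CD11b+ ones (log2 difference -3.93 ± 0.27 SE, edgeR adjusted p = 5.31e-05) and lower in 5 of 5 pools. Its level in CD11c+CD11b+ exceeded that of the CD11c-CD11b+ fraction in 5 of 5 pools as well, by 1.58-fold (0.66 ± 0.15, edgeR adjusted p = 0.0167), although the 2 ranges overlap.

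Apoe, the apolipoprotein that carries cholesterol and binds TREM2, followed the same order at much higher levels. It measured 2975, 4714, 6089, 4628 and 5880 CPM in CD11c+CD11b+ libraries, from untreated to both antibodies. The CD11c-CD11b+ libraries held 2471, 2297, 1688, 3571 and 3850 CPM and the CD11c+CD11b- libraries 506, 450, 356, 203 and 270 CPM. Every CD11c+CD11b- library was below every CD11b+ one, and the difference from CD11c+CD11b+ cells was 14.1-fold (-3.82 ± 0.32, edgeR adjusted p = 0.000119). Between the CD11b+ fractions Apoe was 1.74-fold higher in the CD11c+CD11b+ fraction (0.80 ± 0.22, edgeR adjusted p = 0.033). Lpl, the lipase that frees fatty acids from triglyceride, was low everywhere yet graded: 13.9 to 17.3 CPM, 6.69 to 8.43 CPM and 1.29 to 1.71 CPM in the 3 populations, with no overlap between any of them. Its log2 difference was -3.40 ± 0.12 between CD11c+CD11b- and CD11c+CD11b+ cells (edgeR adjusted p = 6.04e-06) and 1.08 ± 0.11 between CD11c+CD11b+ and CD11c-CD11b+ cells (edgeR adjusted p = 0.000751).

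The remaining genes differed less. Lgals3, the β-galactoside lectin galectin-3, was 2.88-fold lower in CD11c+CD11b- cells than in the CD11c+CD11b+ ones (-1.52 ± 0.12, edgeR adjusted p = 8.11e-05), at 149 to 319 CPM against 520 to 801 CPM. Fabp5 was 2.03-fold lower there (edgeR adjusted p = 0.00037), and Cd9, a tetraspanin of the cell surface, 1.85-fold (edgeR adjusted p = 0.00247). Gpnmb, a lysosomal and surface glycoprotein, was 1.85-fold lower (edgeR adjusted p = 0.0128) and Cd63, a tetraspanin of late endosomes, 1.49-fold (edgeR adjusted p = 0.00734). Tyrobp, which also serves many receptors other than TREM2, was only 1.46-fold lower (-0.54 ± 0.07, edgeR adjusted p = 0.000757), at 197 to 325 CPM against 324 to 440 CPM. Without the pools as a term Gpnmb and Cd63 did not pass (adjusted p of 0.0958 and 0.423), and with all 20 libraries in 1 fit Cd9 and Tyrobp did not (0.112 and 0.416). Spp1, the secreted phosphoprotein osteopontin, was the exception among the 10: its log2 difference of -0.42 ± 0.19 did not pass (edgeR adjusted p = 0.124).

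Against CD11c-CD11b+ cells the order was alike. Trem2 was 9.3-fold lower in CD11c+CD11b- cells (-3.22 ± 0.31), Apoe 7.75-fold (-2.95 ± 0.35) and Lpl 4.86-fold (-2.28 ± 0.15), with edgeR adjusted p of 0.000287, 0.000632 and 5.44e-05. Gpnmb was 2.7-fold lower (-1.43 ± 0.26, edgeR adjusted p = 0.00432). Its levels did not overlap between these 2 populations, nor did those of Trem2, Apoe, Lpl, Cd9 and Lgals3. Lgals3, Cd9, Cd63 and Fabp5 were 2.31-, 2.06-, 1.87- and 1.51-fold lower and all passed, though Cd63 and Fabp5 did not without the pools as a term (adjusted p of 0.153 and 0.103). Tyrobp (-0.24 ± 0.10) and Spp1 (-0.20 ± 0.18) did not pass, with edgeR adjusted p of 0.0846 and 0.407.

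Between the CD11b+ fractions the 10 genes split. Trem2, Apoe, Lpl and Fabp5 were higher in CD11c+CD11b+ cells, and Gpnmb and Cd63 were higher in CD11c-CD11b+ cells, where 21.4% of all 20826 genes were called. Gpnmb measured 107, 86, 93.1, 75 and 94.3 CPM in CD11c+CD11b+ libraries and 147, 123, 129, 149 and 121 CPM in CD11c-CD11b+ ones. The groups did not overlap, and the difference was 1.49-fold (-0.58 ± 0.09, edgeR adjusted p = 0.00385). Cd63 was 1.28-fold lower in CD11c+CD11b+ (-0.36 ± 0.08, edgeR adjusted p = 0.0122) and Fabp5 1.32-fold higher (0.40 ± 0.08, edgeR adjusted p = 0.00984), each in 5 of 5 pools. Tyrobp (0.27 ± 0.11), Lgals3 (0.28 ± 0.10), Cd9 (-0.19 ± 0.17) and Spp1 (0.18 ± 0.25) did not pass. The stroma markers Col1a1, Col1a2, Col3a1, Dcn, Pdgfrb and Postn were lower in CD11c+CD11b+ too (median -0.677, 6 of 6 called), and their part in the lower Gpnmb and Cd63 was not tested. These calls rest on the pools as a term: Lpl and Gpnmb passed without it, Trem2 and Apoe were lost when the RT pool was left out, Apoe was not called by DESeq2, and 0 of the 10 passed when all 20 libraries, with the CD8T ones, shared 1 fit.

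Related genes were counted in the same comparison of CD11b+ fractions, beside the 21.4% of all genes called in either direction. Of 8 genes of TREM2 signalling 5 were higher in CD11c+CD11b+ cells and 0 lower, among them Card9 (0.55 ± 0.11) and the phosphatase Inpp5d (0.40 ± 0.08). Of 9 receptors that pair with TYROBP 4 were higher and 1 lower, with Clec5a at 0.79 ± 0.12 and Trem3 at -0.98 ± 0.16. Of 24 further lipid-associated macrophage genes 8 were higher and 3 lower. Itgax, which encodes the CD11c used in the sort, stood at 2.12 ± 0.13 and the macrophage growth factor Csf1 at -1.25 ± 0.19. Of 16 genes of cholesterol and lipid handling 4 were higher and 2 lower, with the phospholipid transfer protein Pltp at 0.97 ± 0.08 and Angptl4, an inhibitor of lipoprotein lipase, at -0.56 ± 0.13. Macrophage markers were higher in the same cells (9 of 10 called, median 0.673) and all 6 neutrophil markers lower (median -3.141), and their part in the differences of the 10 genes was not tested.

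**Figure D2:**
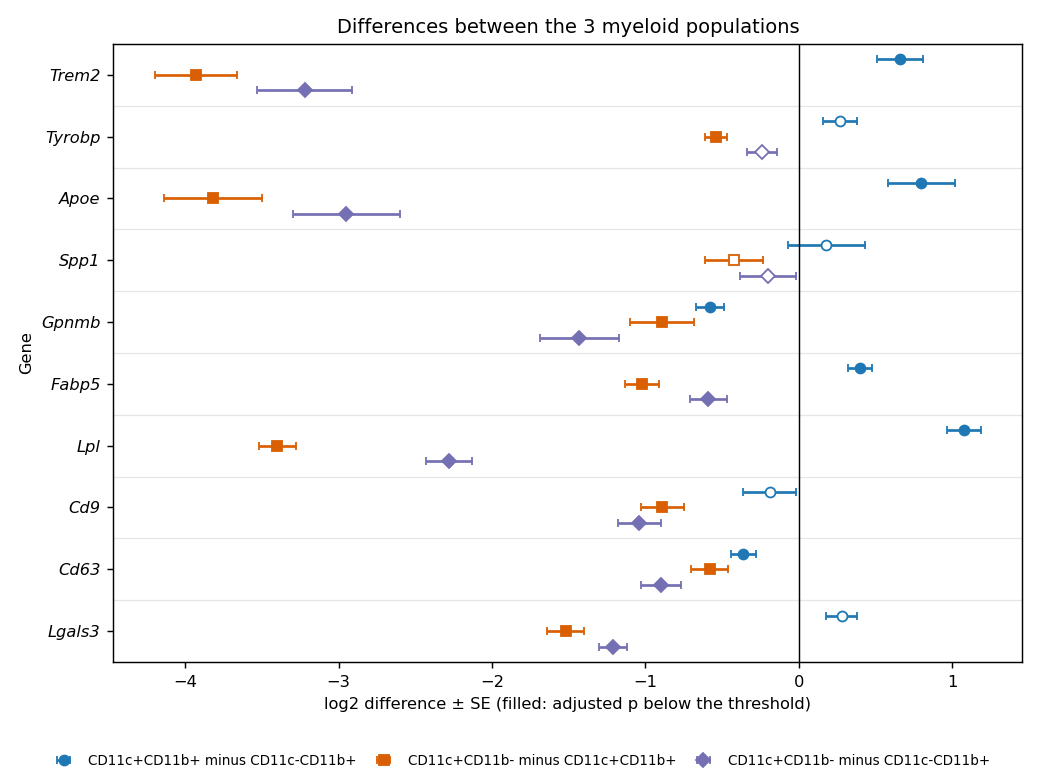
Log2 difference with its SE (x) for each gene (y) in the 3 comparisons of myeloid populations, with filled symbols where the adjusted p passed 0.05. Trem2, Apoe and Lpl lie between -3.93 and -2.28 where CD11c+CD11b- cells are compared, and Spp1 is open in all 3 comparisons.

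The other genes of the pathway were read from lists of related genes, whose counts stand beside the 41.6% of all genes called in either direction. Of 9 receptors that pair with TYROBP, 7 were lower and 2 higher in CD11c+CD11b- cells than in the CD11c+CD11b+ ones. Those higher were Siglech, a receptor of plasmacytoid dendritic cells (6.44 ± 0.55), and Klra8, an activating receptor of natural killer (NK) cells (5.25 ± 0.22). Cd300lb (-7.92 ± 0.59) and Trem3 (-4.71 ± 0.49), both of myeloid cells, were lower. All 4 NK markers were called higher in these CD11c+CD11b- libraries, at a sum of 671 to 974 CPM against 16.2 to 33.3 CPM, beside a Tyrobp level only 1.46-fold lower, and their part in it was not tested. Among 8 genes of TREM2 signalling 7 were lower, led by Card9 (-2.35 ± 0.28) and the kinase Syk (-1.45 ± 0.19), and Hcst, the adaptor DAP10, was higher (1.24 ± 0.11).

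Of 24 further lipid-associated macrophage and phagolysosome genes, 20 were lower and 1 higher in CD11c+CD11b- cells than in the CD11c+CD11b+ ones, with a median of -1.456. The macrophage elastase Mmp12 (-3.57 ± 0.12), Cd68 (-2.86 ± 0.13) and the lectin receptor Clec7a (-2.67 ± 0.27) were lower, and the cystatin Cst7, also made by lymphocytes, was higher (4.07 ± 0.12). Of 17 genes of cholesterol and lipid handling 11 were lower and 0 higher. The scavenger receptor Msr1 (-4.42 ± 0.31), Apoc2, an activator of lipoprotein lipase (-4.16 ± 0.22), the oxysterol receptor Nr1h3 (-3.70 ± 0.23) and the cholesterol exporter Abca1 (-3.53 ± 0.21) were among them. Receptors for apolipoprotein E included Lrp1, which was lower (-3.11 ± 0.38), and Lrp8, which was higher (1.37 ± 0.26). Receptors for osteopontin split, with Itgb3 higher (4.30 ± 0.18) and Itga9 lower (-3.91 ± 0.28) in CD11c+CD11b- cells.

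Across the 15 myeloid libraries Trem2 and Apoe rose and fell together (Pearson r = 0.99 of log2 CPM with 1 added, given as a description). These points share pools and differ mainly by population. Gpnmb went with Cd63 (r = 0.84) and Fabp5 with Lgals3 (r = 0.94), while r was -0.31 between Tyrobp and Cd63. Over the same libraries the genes most like Trem2 included Abcc3 and Clec4a1 (each r = 0.997), and those most like Apoe were Adgre1 (0.996), Ang (0.996) and Selenop (0.995). Gpnmb was nearest to Flrt2 (0.990), Sntb2 (0.986) and Asph (0.983), and Cd63 to Apbb2 (0.991), Timp2 (0.990) and Vcam1 (0.989). Cd9 was nearest to Cd101 (0.951), Plaur (0.949) and Il1b (0.948), and Spp1 had no close partner, with Ccr2 (0.843) first.

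In CD8T, cells that are not known for this programme, all 10 genes were detected. Trem2 measured 32.7, 24, 13.7 and 22.2 CPM in the 4 irradiated CD8T libraries, RT first and both antibodies last, and 150 CPM in the library labelled untreated CD8T. Apoe measured 1122, 1084, 498 and 842 CPM there and 8663 CPM in the library labelled untreated, above every myeloid library. These levels moved with the macrophage markers, whose sums were 1647, 1398, 736 and 1113 CPM and then 10075 CPM, and the markers' part was not tested. With all 5 CD8T libraries, 4 of the 10 genes (Tyrobp, Gpnmb, Cd9 and Cd63) were lower than in the mean of the 3 myeloid populations and none was higher, where 33.7% of all genes were called. Without the library labelled untreated CD8T all 10 were lower, where 49.1% of all genes were called. The log2 differences without it ran from -2.55 ± 0.17 for Tyrobp (edgeR adjusted p = 1.26e-08) and -2.09 ± 0.19 for Cd9 to -0.85 ± 0.12 for Fabp5. Apoe, at -0.98 ± 0.29 (edgeR adjusted p = 0.0112), and Trem2, at -1.10 ± 0.26, were lower than the myeloid mean as well. In the 4 irradiated pools both were above the CD11c+CD11b- library of the same pool, in 4 of 4.

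The irradiation comparison asks how the programme stood 5 days after 8 Gy. It sets the 4 irradiated libraries of a population, which differ in antibody, against its 1 untreated library, so the untreated library is assumed to vary like the others. Trem2 alone passed, in CD11c+CD11b+ cells, where 0.343% of all genes were called. There the untreated library held 71.6 CPM and the 4 irradiated ones 137 to 154 CPM, a 2.02-fold rise (log2 1.01 ± 0.12 SE, edgeR adjusted p = 0.0437). The rise did not depend on any irradiated library for its size, at 1.00 to 1.04 with each left out. The adjusted p rose to 0.235 without the RT pool and to 0.234 without the pool given both antibodies, and the rise did not pass without a filter on low counts (0.067) or with all 15 myeloid libraries in 1 fit (0.266). Ms4a7 (1.53 ± 0.15) and Fcgr1 (1.22 ± 0.13), of the macrophage markers, rose as well, and all 10 of those markers had a value above 0 with a median of 0.846. Their sum was 4559 CPM before and 7203 to 8543 CPM after irradiation, and its part in the rise of Trem2 was not tested.

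Apoe followed Trem2 in CD11c+CD11b+ cells without passing (0.82 ± 0.21, edgeR adjusted p = 0.14), with 2975 CPM untreated and 4628 to 6089 CPM irradiated. Cd9 measured 161 CPM untreated and 108 to 122 CPM irradiated (-0.49 ± 0.12, edgeR adjusted p = 0.133). More of the 10 genes than Trem2 had an unadjusted p below 0.05 or were called by DESeq2 there. The shares of all genes that did so are not given here, so this is not read as a result about the 10 genes. Around them, Sirpb1a, a receptor that pairs with TYROBP, rose (1.27 ± 0.16), and none of 8 genes of TREM2 signalling, 24 further lipid-associated macrophage genes or 17 of cholesterol and lipid handling passed.

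None of the 10 genes passed for irradiation in CD11c+CD11b- cells, where 0.019% of all genes were called, or in CD11c-CD11b+ cells, where 0.0047% were. Some of the 10 had an unadjusted p below 0.05 or were called by DESeq2 in each, and the shares of all genes that did so are not given here. How many of the 10 passed depends on the terms for the antibodies and on the pool given RT and anti-SIRPa. The number was larger in all 3 populations without that pool. The share of all genes called in those fits is not given here, so this is not read as a result about the 10 genes. The CD11c-CD11b+ library of that pool is the one with 3166 CPM of neutrophil markers, and their part in the count was not tested.

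Tyrobp and Lgals3 were higher in every irradiated library than in the untreated one, in all 3 myeloid populations, without passing. The untreated libraries are single and are read as coming from 1 pool. The share of all genes with such an order is not given here, so it is not read as a result about these genes. The same limit holds for the order of Cd63 below. The log2 differences of Tyrobp were 0.37 ± 0.12 in CD11c+CD11b+, 0.53 ± 0.14 in CD11c+CD11b- and 0.81 ± 0.24 in CD11c-CD11b+ cells. Those of Lgals3 were 0.43 ± 0.19, 0.75 ± 0.35 and 0.82 ± 0.30 in the same order. Cd63 was lower in every irradiated library than in the untreated library of its population, in all 3 myeloid populations, though the test did not pass in any. In CD11c+CD11b- cells it measured 293 CPM untreated and 117, 150, 66.6 and 84.9 CPM from RT to both antibodies (-1.58 ± 0.37, edgeR adjusted p = 0.0931). The CD11c+CD11b+ libraries held 292, 180, 244, 115 and 144 CPM (-0.79 ± 0.34, edgeR adjusted p = 0.331), and the CD11c-CD11b+ libraries 398, 202, 295, 175 and 165 CPM (-0.92 ± 0.30, edgeR adjusted p = 0.208). Gpnmb measured 107 CPM untreated and 27.8 to 57.2 CPM irradiated in CD11c+CD11b- cells (-1.44 ± 0.35, edgeR adjusted p = 0.0966). The 6 stroma markers had median log2 differences of -1.74, -2.729 and -1.424, in the order CD11c+CD11b+, then CD11c+CD11b-, then CD11c-CD11b+. Their sum was 4634 to 6194 CPM in the untreated myeloid libraries and 426 to 2717 CPM in the irradiated ones, and its part in the levels of Cd63 and Gpnmb was not tested. The mitochondrial share was also highest in the untreated library of each population, at 1.355 to 1.898% against 0.747 to 1.321%.

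**Figure D3:**
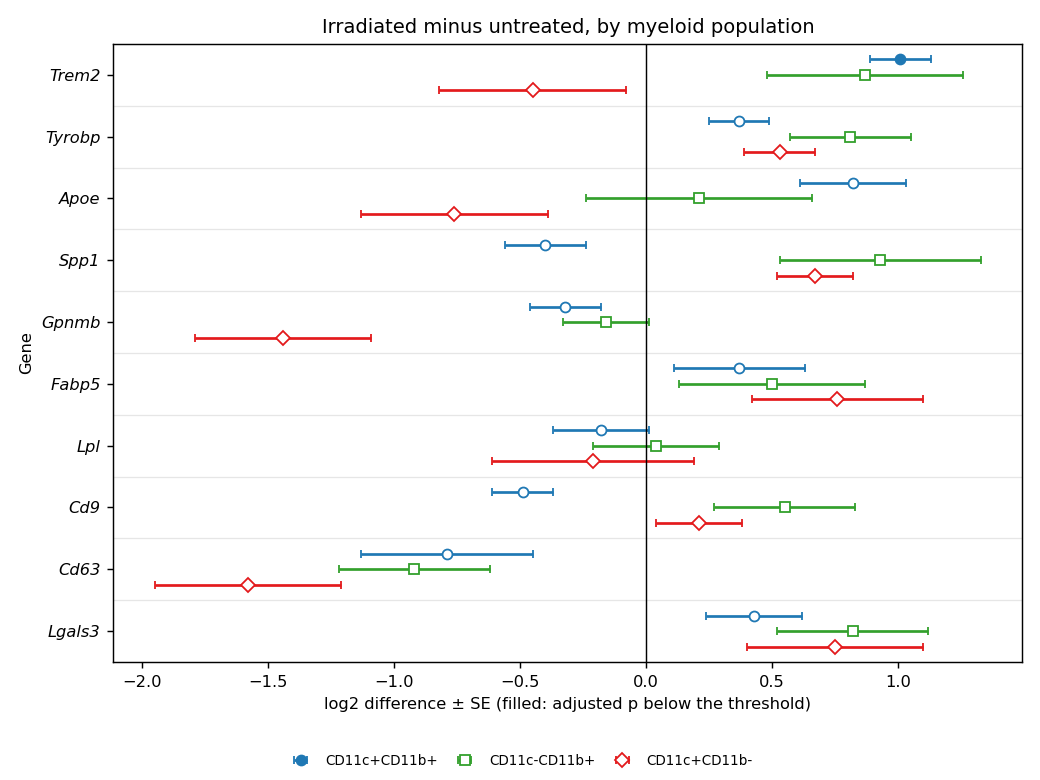
Log2 difference of irradiated from untreated libraries with its SE (x) for each gene (y) in the 3 myeloid populations, with filled symbols where the adjusted p passed 0.05. Trem2 in CD11c+CD11b+ cells is the only filled symbol, and Cd63 lies below 0 in all 3 populations.

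Spp1 differed between populations in its response. It measured 723 CPM in the untreated CD11c+CD11b+ library and 558, 621, 549 and 483 CPM in the irradiated ones, all lower. In CD11c+CD11b- cells it measured 286 CPM untreated and 479, 546, 434 and 488 CPM irradiated, all higher. The difference between the 2 responses was -1.17 ± 0.17 on the log2 scale (edgeR adjusted p = 0.0369), in a test where 0.982% of all genes were called. It did not pass when the pool of RT alone (0.0867), that with added anti-PD-1 (0.0608) or that with both antibodies (0.0747) was left out, or with no filter on low counts (0.13). Of the other 9 genes none passed, with values of 1.54 ± 0.39 for Apoe and 1.41 ± 0.31 for Trem2. DESeq2 called more of the 10, and the share of all genes it called is not given here. In CD11c-CD11b+ cells Spp1 measured 312 CPM untreated and 396 to 856 CPM irradiated, and its response differed from that of CD11c+CD11b+ by -1.27 ± 0.38 (edgeR adjusted p = 0.348). None of the 10 genes passed in that test, where 0.335% of all genes were called. DESeq2 called Cd9 alone of the 10, and the share of all genes it called is not given here. Dendritic cell markers differed in the same sense as Spp1 between these populations (median -2.757, 6 of 7 called), and their part in it was not tested.

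Anti-PD-1 was compared within the 4 irradiated libraries of a population, 2 with and 2 without it, with anti-SIRPa as a second term, which leaves 1 residual degree of freedom and no pool to leave out. In CD11c+CD11b+ cells Cd63 was lower and Fabp5 higher, where 6.66% of all genes were called. Cd63 measured 115 and 144 CPM with anti-PD-1 and 180 and 244 CPM without, a 1.62-fold difference (-0.70 ± 0.09, edgeR adjusted p = 0.0101). Fabp5 measured 90.5 and 87.8 CPM with it and 71.4 and 57.4 CPM without (0.48 ± 0.09, edgeR adjusted p = 0.0241). In CD11c+CD11b- cells Cd63 (-0.78 ± 0.09, edgeR adjusted p = 0.0149) and Gpnmb (-0.77 ± 0.10, edgeR adjusted p = 0.0211) were lower, where 4.1% of all genes were called. Gpnmb measured 27.8 and 33.5 CPM there with anti-PD-1 and 49.6 and 57.2 CPM without.

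In CD11c+CD11b+ cells the anti-PD-1 differences of Trem2 (-0.01 ± 0.08), Apoe (-0.03 ± 0.13) and Lpl (0.00 ± 0.16) did not pass. In CD11c-CD11b+ cells none of the 10 genes passed and 0% of all genes were called. There 6 of the 10 had an unadjusted p below 0.05 and DESeq2 called 4. The shares of all genes at that unadjusted p or called by DESeq2 are not given here, so these counts are not read as a result about the 10 genes. Trem2 measured 121 and 105 CPM with anti-PD-1 and 82.6 and 57.5 CPM without in those cells (0.71 ± 0.14, edgeR adjusted p = 0.138), and Apoe 3571 and 3850 CPM against 2297 and 1688 CPM (0.92 ± 0.23, edgeR adjusted p = 0.173). The macrophage markers had a median of 0.621 in the same libraries, and their part was not tested.

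In CD11c+CD11b+ cells 3 of 16 genes of cholesterol and lipid handling were called higher and 0 lower, and 2 of 24 further lipid-associated macrophage genes higher and 2 lower. The cholesterol exporters Abca1 (0.58 ± 0.11) and Abcg1 (0.63 ± 0.11) and the fatty acid receptor Cd36 (0.76 ± 0.11) were higher with anti-PD-1, and the galectin Lgals1 (-0.56 ± 0.09) and the tetraspanin Cd81 (-0.94 ± 0.12) were lower. In CD11c+CD11b- cells 4 of those 24 were lower and 0 higher, and Lgals1 (-0.58 ± 0.08) and Lrp1 (-0.62 ± 0.08) were lower. The stroma markers were lower beside Cd63, with 4 of 6 called in CD11c+CD11b+ cells (median -0.563) and 3 of 6 in CD11c+CD11b- cells (median -1.383), and their part was not tested. All 4 calls of the 10 genes were lost without a filter on low counts and when the anti-SIRPa term was dropped.

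**Figure D4:**
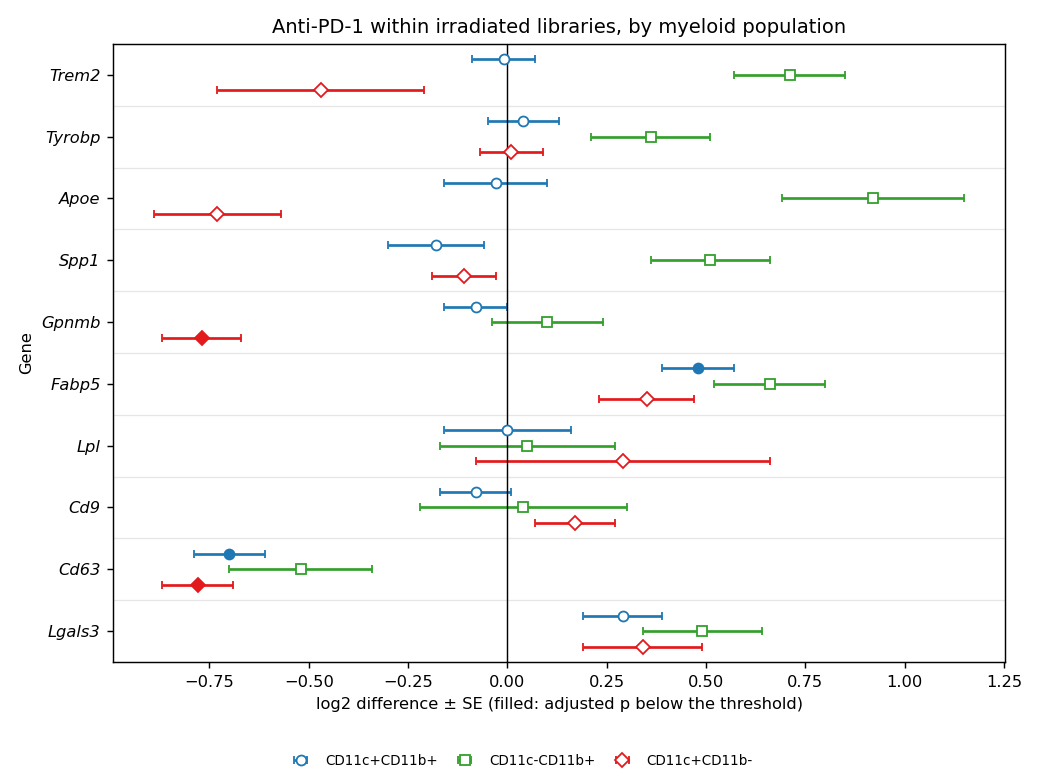
Log2 difference of irradiated libraries with anti-PD-1 from those without it, with its SE (x), for each gene (y) in the 3 myeloid populations, with filled symbols where the adjusted p passed 0.05. Cd63 is below 0 in all 3 populations and filled in 2 of them, and Trem2 of CD11c-CD11b+ cells, at 0.71, is open.

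The level of Cd63 is set beside the stroma markers here as a description. The irradiated CD11c+CD11b- library given RT and anti-PD-1 had the lowest Cd63 of the myeloid libraries, 66.6 CPM, at a marker sum of 426 CPM. The untreated CD11c-CD11b+ library had the highest, 398 CPM, at a sum of 6104 CPM. Between them the order was not strict. The untreated CD11c+CD11b- library, with the highest sum at 6194 CPM, held 293 CPM of Cd63. The CD11c-CD11b+ library of RT with anti-SIRPa held 295 CPM at a sum of 2717 CPM. Cd63 shares sequence with the processed copy Cd63-ps, which reached 46.5 CPM and held 9.46 to 13.8% of the level of Cd63 in each library, so the split of reads between them is uncertain. Beside the macrophage markers, Trem2 ran over the myeloid libraries from 5.63 CPM at a sum of 295 CPM to 154 CPM at a sum of 8543 CPM.

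**Figure D5:**
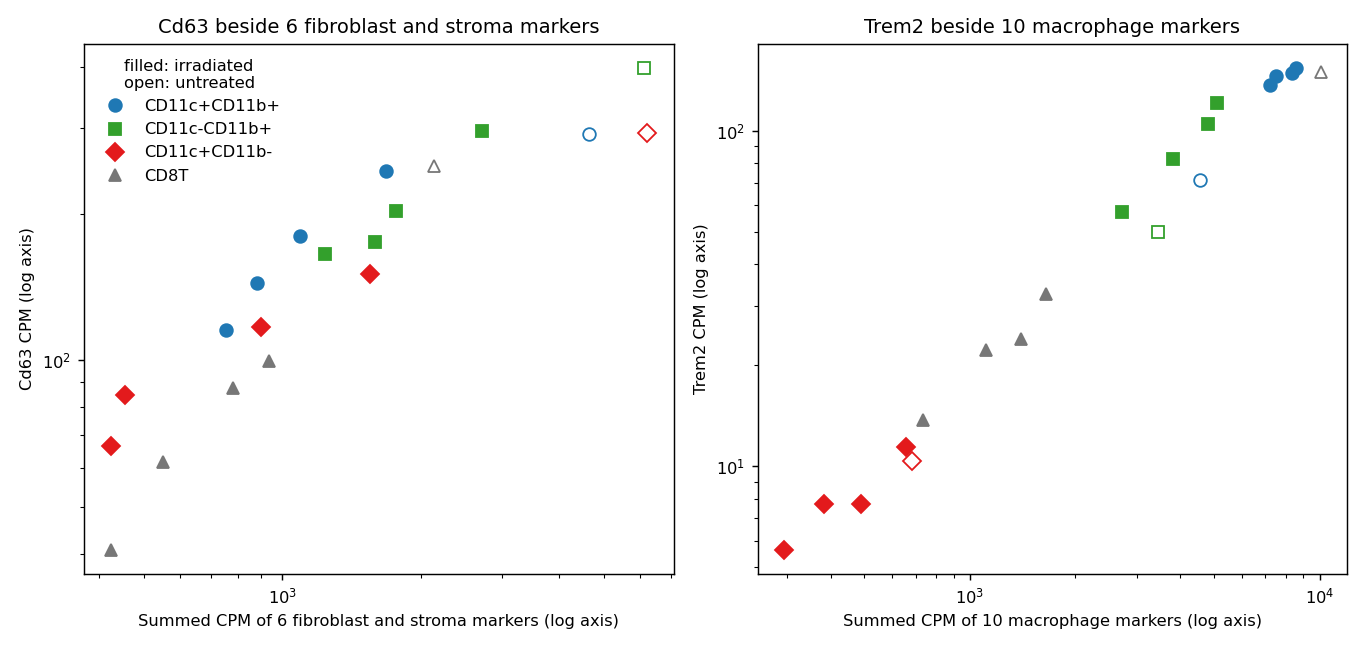
Cd63 beside the summed CPM of 6 fibroblast and stroma markers (left) and Trem2 beside the summed CPM of 10 macrophage markers (right), both on log axes, with 1 point for each of the 20 libraries, filled for irradiated and open for untreated. The library labelled untreated CD8T lies at 150 CPM of Trem2 and a marker sum of 10075 CPM, near the CD11c+CD11b+ libraries, whose highest sum is 8543 CPM.

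Anti-SIRPa blocks the receptor through which CD47 restrains phagocytosis, and the same 4 irradiated libraries were compared for it. None of the 10 genes passed in any myeloid population. In the order CD11c+CD11b+, then CD11c+CD11b-, then CD11c-CD11b+, 0.156%, 0.00523% and 0% of all genes were called. At an unadjusted p below 0.05 there were 3, 5 and 2, and DESeq2 called 0, 1 and 0. The shares of all genes for these 2 counts are not given here either. The values for Trem2 were 0.06 ± 0.08, -0.06 ± 0.26 and -0.36 ± 0.14, and those for Cd63 were 0.35 ± 0.09, 0.37 ± 0.09 and 0.23 ± 0.18. Fabp5 (-0.53 ± 0.12, edgeR adjusted p = 0.178) and Lgals3 (-0.55 ± 0.15, edgeR adjusted p = 0.206) had the most negative values in CD11c+CD11b- cells. These 2 tests of an antibody share all their libraries, and in CD11c-CD11b+ cells both include the library with 3166 CPM of neutrophil markers, whose part was not tested.

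The libraries of RT with both antibodies and RT alone are single, and their ratio has no test. In CD11c+CD11b+ cells it ran from 0.799 for Cd63 to 1.25 for Apoe, and in CD11c+CD11b- cells from 0.599 for Apoe to 1.07 for Lpl. In CD11c-CD11b+ cells it ran from 0.815 for Cd63 to 1.68 for Apoe.

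Gene sums hide which transcript was counted. Gpnmb, Lpl and Cd9 were each read almost wholly from 1 protein-coding transcript, with 95.2%, 98.6% and 98.5% of their counts over all libraries. Trem2 was split between 2 protein-coding transcripts, with 47.4% and 38.4%, and the share of the first ran from 24.2 to 91.9% between libraries. For Spp1 the leading transcript held 69.5% and the next 24.6%, and in CD8T these were 51.5 ± 17% and 45.5 ± 18.2% (SD, n = 5). For Lgals3 the leading 2 held 64.2% and 31.8%. Cd9 overlaps 2 predicted genes on the opposite strand and Spp1 overlaps 1 on its own, at up to 15.6 and 16.9 CPM, and whether counting used strand is not given in the sources used here.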

How the data were processed

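RNA was measured in 20 libraries, and each population of each treatment is 1 library. The values the authors deposited are estimated counts of transcripts, in whole numbers, obtained with HISAT2 and StringTie on GRCm38 per the submitters' processing notes, which also name FastQC 0.11.8 and edgeR 3.34.0. Of 142699 transcripts, 141469 matched GENCODE M21 and were summed to genes, and the other 1230 held 0.327 to 0.399% of the counts of a library. Library totals ran from 21522743 to 35696925 counts.

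Genes passed edgeR's filterByExpr (minimum count 10, minimum total 15), were scaled by TMM and were tested with edgeR 4.0.16's quasi-likelihood test in R 4.3.3, adjusted by Benjamini-Hochberg over all genes tested at 0.05. The SE is the absolute log2 difference over the square root of F. All 10 genes passed the filter in each of 15 comparisons. Differences between populations had the treatment pool as a block, since the labels pool tumours by group, read here as 1 pool for each treatment. The code was tested on simulated data.

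The genes and the 16 related lists were chosen with earlier results of these data known. All 10 genes are named. From a list at most the 4 genes with the largest change among those called with 10 CPM in 2 libraries are named, and markers of the sorted cells by sum. Partners are the 3 genes with the highest r among genes at a mean of 10 CPM. Some genes these rules name are not reported here. Alternatives were RLE scaling, no filter, DESeq2 1.42.0, other model terms and each pool left out. A filter at a mean of 0.5 CPM and scaling by library totals alone were added after seeing the data. Raw reads were not used here.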

Additional observations from a re-analysis of the deposited data

Results flagged for a closer look

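By Dixon's gap test chance sets a library apart in about 1 in 20 independent groups, but the 10 genes here share their libraries and are not independent. In 40 groups of 5 libraries (10 genes in 4 populations), 11 had a library set apart from the other 4 by this test. Of these, 9 were the library labelled untreated CD8T, each time the highest: Trem2 at 150 CPM, Tyrobp at 328, Apoe at 8663, Spp1 at 840, Fabp5 at 63.3, Lpl at 18, Cd9 at 126, Cd63 at 251 and Lgals3 at 625 CPM. The other 2 were the untreated CD11c+CD11b+ library, lowest for Trem2 at 71.6 CPM and highest for Cd9 at 161 CPM. Each is the only unirradiated library of its population, so the library and the treatment cannot be told apart. The response of Spp1 to irradiation differed between CD11c+CD11b+ and CD11c+CD11b- cells by a test of the difference itself, at -1.17 on the log2 scale (edgeR adjusted p = 0.0369). Each response rests on 1 untreated library, and for Spp1 the adjusted p was 0.0867, 0.0608 and 0.0747 without the pool of RT, of RT and anti-PD-1 or of RT and both antibodies, and 0.13 with no filter.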

How the results depend on the processing

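With 1 library for each population and treatment, calls on treatment rest on few degrees of freedom. All 33 called results of the 10 genes kept their sign in every alternative run, as did 104 of the 117 others. The counts of called genes changed as follows. The shares of all genes called under these alternatives are not given here, so a larger count is not read as a result about the 10 genes.

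For CD11c+CD11b+ against CD11c-CD11b+ cells 6 members passed, 2 with no replicate block for the pools, 0 with all 20 libraries in 1 fit, and 4 to 8 with each pool left out. With no replicate block the counts were 7 and 6 for CD11c+CD11b- cells against the CD11b+ fractions and 3 for CD8T. For CD8T 4 members passed and 10 without the library labelled untreated, with 3 to 10 over the pools left out. For irradiation in CD11c+CD11b+ cells 1 member passed, 0 with no filter and with all 15 myeloid libraries in 1 fit, 4 with DESeq2, 2 with terms for both antibodies, and 0 to 3 with a pool left out. In CD11c+CD11b- cells 0 passed, 4 with DESeq2, 5 with antibody terms, 3 with 15 libraries in 1 fit and 0 to 6 with a pool left out. In CD11c-CD11b+ cells 0 passed, 1 with DESeq2 and 0 to 5 with a pool left out. The difference in response between CD11c+CD11b+ and CD11c+CD11b- gave 1, 0 with no filter, 6 with DESeq2 and 0 to 2 with a pool left out, and that with CD11c-CD11b+ gave 1 with DESeq2. Anti-PD-1 in CD11c+CD11b+ gave 2, and 0 with no filter, with the other term dropped or with 12 libraries in 1 fit. In CD11c+CD11b- it gave 2, and 0 with no filter or the other term dropped. In CD11c-CD11b+ it gave 4 with DESeq2, and anti-SIRPa in CD11c+CD11b- gave 1. The cause of these changes was not tested. No pool was left out of the antibody tests, which would leave no residual degree of freedom.

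Signs changed only in results that did not pass, given as log2 differences. Against CD11c-CD11b+ cells Spp1 of CD11c+CD11b+ ran from -0.07 to 0.41 with a pool left out, lowest without the untreated one. For CD8T with no replicate block Trem2 was 0.10 and Apoe 0.54. With a pool left out Trem2 ran from -1.08 to 0.12, at 0.12 and 0.02 without RT and anti-PD-1 or both antibodies. Apoe ran from -0.97 to 0.31, and without RT, RT and anti-SIRPa, RT and anti-PD-1 or both antibodies it was 0.07, 0.07, 0.31 and 0.23. For irradiation in CD11c-CD11b+ Apoe was -0.23 with antibody terms, and Lpl -0.03 by library totals. The difference in response of Lpl from CD11c+CD11b- was 0.04 with no filter and ran from -0.14 to 0.06 with a pool left out, highest without RT and anti-PD-1, and that of Trem2 from CD11c-CD11b+ ran from -0.05, without RT and anti-SIRPa, to 0.33. For anti-PD-1 in CD11c+CD11b+ Lpl was -0.01 with no filter and by library totals, and -0.00 with the other term dropped or 12 libraries in 1 fit. Tyrobp in CD11c+CD11b- was -0.02 in 1 fit, and in CD11c-CD11b+ Lpl was -0.02 and Cd9 -0.04 by library totals. For anti-SIRPa Apoe in CD11c+CD11b- was -0.04 with the other term dropped, and Cd9 in CD11c-CD11b+ 0.02 by library totals.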
